A study of Rattus norvegicus with 7 samples.

Results

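The mRNAs described here encode axon guidance ligands and receptors. They were chosen by gene symbol, from the platform annotation of the Illumina rat Ref-12 array, as every probe whose symbol begins with Efna, Efnb, Epha, Ephb, Sema and a digit, Plxn, Unc5, Robo or Ntng, or is that of a neuropilin, Dcc, a netrin or a Slit. This gave 58 of the 22523 probes, for 56 of 13337 gene symbols. A probe was tested if its detection p-value, the Illumina software's measure of signal above the negative control beads, was under 0.02 on at least 2 of the 7 arrays. By this limit 30 of the 56 genes were tested, each with 1 probe, among 9187 tested probes in all. The spelling also takes in *Unc50*, which encodes a membrane protein of the secretory pathway and not a netrin receptor, so 29 of the 30 tested mRNAs are guidance mRNAs. *Unc50* is counted with the 30 and described apart.

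All RNA came from cortical neurons of embryonic day 18 Sprague-Dawley rats, kept in culture for 9 days and given no treatment named in the labels. TRF2-S is a splice variant of the telomere protein TRF2 that lacks its DNA-binding domain. It was pulled down from cell extracts with a polyclonal antibody on beads, and rabbit IgG on the same kind of beads was the control. The RNA on the beads was hybridized to 2 single-colour arrays for the TRF2-S RIP and 5 for the IgG RIP. These 5 carry the names IgG1, IgG2, IgG3, IgG3_0 and IgG3_1x in the labels. The methods speak of independent experiments, yet no source says if IgG3, IgG3_0 and IgG3_1x came from different RNA, so the p-values measure the spread between arrays, part of which may be technical.

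Ephrins, semaphorins, Slits and netrins are extracellular or membrane-bound cues that steer growing axons, and Eph receptors, plexins with neuropilins, Robos, and Dcc with the Unc5 proteins are the receptors that read them on the growth cone. Many of the same molecules act later at synapses and dendrites. Some guidance mRNAs are carried into axons, where local translation changes how a growth cone answers a cue. The comparison asks which of these mRNAs co-purified with TRF2-S beyond the background of the IgG beads.

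Each array detected 7097 to 8326 probes. IgG1 and IgG2 resembled the TRF2-S arrays (Pearson r 0.977 to 0.989 across the tested probes), whereas the 3 arrays named IgG3 correlated with those 4 at 0.875 to 0.933 and with each other at 0.979 or more. Mean signal was 298 to 608 on the arrays named IgG3 and 155 to 216 on the others. Every result is therefore given for all 5 IgG arrays as the control and again for IgG1 and IgG2 alone. These comparisons share the TRF2-S arrays and IgG1 and IgG2, so they are not independent. Values are on a log2 scale on which each array has the same mean (6.98) and SD (1.21). The number of arrays limits the precision. No array of the extract before the IP was used here, and in such bulk RNA fewer cells of a type and less RNA per cell cannot be told apart.

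All 12 neuronal markers were detected. Of the markers on the array, 6 of 7 for astrocytes, 6 of 10 for the oligodendrocyte lineage, 1 of 7 for microglia, 1 of 5 for endothelial and mural cells and 2 of 5 for fibroblasts were detected. *Aqp4*, *Mog*, *Mag*, *Mobp* and *Olig2* were not. The astrocyte markers summed, on the linear form of the scale, to 3020 to 3570 on the TRF2-S arrays, 3790 to 4110 on IgG1 and IgG2 and 3770 to 3900 on the arrays named IgG3. Those of the oligodendrocyte lineage summed to 6010 to 7620, 8490 to 9800 and 3370 to 4980. The 12 neuronal markers summed to 26700 to 38000, 28700 to 37200 and 17600 to 33000, so the TRF2-S arrays overlapped IgG1 and IgG2. For glutamatergic neurons 4 of 5 markers on the array were detected, without *Camk2a*, and for GABAergic neurons 6 of 6. The former summed to 1810 to 1900, 1380 to 1580 and 1820 to 1860, and the latter to 2690 to 3220, 2450 to 2620 and 3270 to 3320. Both of these sums were higher on the TRF2-S arrays than on IgG1 and IgG2. The part of these differences in the results on guidance mRNAs was not tested.

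No guidance mRNA passed the threshold of an adjusted p under 0.05 in the TRF2-S RIP. Against 5 IgG arrays limma called 0 of the 30 higher and 0 lower, where it called 0.0327% of all tested probes higher and 0% lower. By unadjusted p under 0.05, 4 were higher (*Efna2*, *Unc5a*, *Plxna2* and *Sema6c*) and 4 lower (*Efnb1*, *Efnb3*, *Plxnd1* and *Sema4f*), against 6.06% of all probes in each direction. The count of lower mRNAs changed with single arrays, to 10 when IgG1 was left out and 7 without IgG2. The count of higher ones was 2 without any 1 of the arrays named IgG3. The shares over all probes in these fits were not counted, so the changes are not a result about the guidance mRNAs. Against IgG1 and IgG2 alone limma again called 0 in each direction (all probes 0.142% higher and 0.0109% lower). With unadjusted p under 0.05 there were then 3 higher, *Efna2*, *Unc5a* and *Sema3f*, and the same 4 lower (all probes 6.51% and 6.02%). With 1 of these 4 arrays left out a group held a single array, and counts from such fits are not set beside these. The one-way analysis of variance of the methods, adjusted here over all tested probes, gave 0 at 0.05 in either comparison. The methods use it unadjusted, within a set of criteria whose results are given below. The adjusted p-values of the 30 were 0.406 or more with 5 IgG arrays, and 0.135 or more with IgG1 and IgG2 as the control.

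The shares of guidance mRNAs on either side of 0 were close to those of all probes, while their median depended on the IgG arrays used. Against 5 IgG arrays 11 of the 30 log2 differences lay above 0 and 19 below (all probes 41.3% and 58.7%), with a median of -0.33 beside -0.07 over all probes. Against IgG1 and IgG2, 15 lay above 0 and 15 below (all probes 51.4% and 48.6%), with a median of 0.00013 beside 0.0048. The gap between both medians was -0.26 against 5 IgG arrays, but -0.11 when the arrays named IgG3 were averaged to 1 and -0.15 when they formed a random block. Only *Efnb3* and *Plxnd1* were 0.5 log2 units or more from IgG1 and IgG2, 2 of 30 beside 3.66% of all probes.

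**Figure D1:**
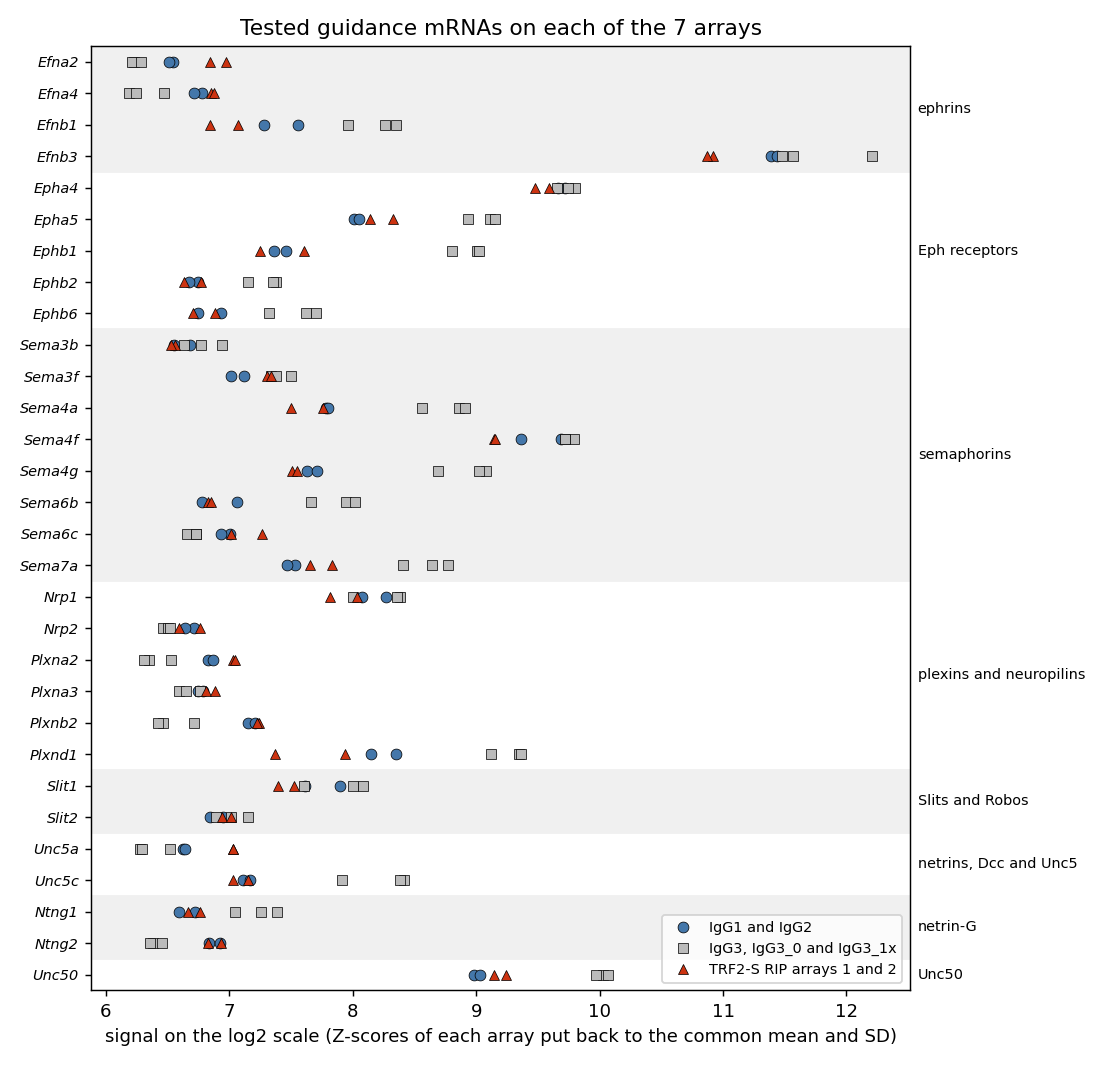
Signal of the 30 tested mRNAs on each of the 7 arrays, on the common log2 scale (horizontal axis), grouped by family. Triangles are the 2 TRF2-S arrays, circles IgG1 and IgG2, and squares the arrays named IgG3, which lie more than 1 log2 unit above IgG1 and IgG2 on average for 7 of the 30.

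In the plot of each mRNA on each array, the TRF2-S arrays lay beside IgG1 and IgG2 for most guidance mRNAs, and the arrays named IgG3 lay apart. On the latter, 7 of 30 means were more than 1 log2 unit above the mean of IgG1 and IgG2 (4.09% of all probes) and 0 more than 1 unit below (4.5% of all probes). The 7 are *Ephb1* (1.53), *Sema4g* (1.26), *Sema7a* (1.11), *Unc5c* (1.10), *Epha5* (1.03), *Plxnd1* (1.03) and *Unc50* (1.02). For each of these except *Plxnd1* and *Sema4g* the 2 TRF2-S arrays overlapped the 5 IgG arrays.

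Among the ephrins, the membrane-bound ligands of Eph receptors, the 2 tested ephrin-A mRNAs had log2 differences above 0 and the 2 ephrin-B mRNAs below 0. *Efna2* encodes a GPI-anchored ephrin-A. Its deposited signal was 91.0 and 106.8 on TRF2-S arrays 1 and 2, 74.7 and 79.2 on IgG1 and IgG2, and 96.3, 87.6 and 92.6 on IgG3, IgG3_0 and IgG3_1x. It was above background on both TRF2-S arrays and on 0 of the 5 IgG arrays, although its raw signals on IgG3 and IgG3_1x exceeded that on TRF2-S array 1 (detection p 0.679 and 0.561 on the former, 0.00727 on the latter). On the log2 scale it measured 6.91 ± 0.09 (SD, n = 2) in the TRF2-S RIP and 6.36 ± 0.16 (SD, n = 5) in the IgG RIP. On this scale its values allow at least 1.21-fold against 5 IgG arrays (adjusted p = 0.406 from limma) and at least 1.17-fold against IgG1 and IgG2 (adjusted p = 0.242). Such a bound, here and below, takes each undetected array at its dimmest detected signal, or at the probe's own if higher. It holds on the common scale only, since the deposited signals of *Efna2* on the TRF2-S arrays overlap those on the arrays named IgG3.

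*Efna4*, another ephrin-A, was detected on both TRF2-S arrays and on IgG1 and IgG2 but on none of the arrays named IgG3. It measured 6.86 and 6.88 in the TRF2-S RIP, 6.78 and 6.71 on IgG1 and IgG2, and 6.18, 6.47 and 6.25 on IgG3, IgG3_0 and IgG3_1x. Both TRF2-S arrays were above all 5 IgG arrays, with a log2 difference of 0.39 (standard error 0.19, adjusted p = 0.406 from limma), but of only 0.12 (0.10) against IgG1 and IgG2. *Efna1* and *Efna5* were not above background on any array.

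Both ephrin-B mRNAs detected lay lower in the TRF2-S RIP. *Efnb3*, a transmembrane ligand known as a midline barrier to corticospinal axons, had deposited signals of 781 and 1401 on the TRF2-S arrays, 1172 and 1753 on IgG1 and IgG2, and 11816, 4596 and 10205 on the arrays named IgG3. These raw signals of the TRF2-S arrays overlap those of IgG1 and IgG2. On the common scale it measured 10.92 and 10.87 in the TRF2-S RIP, 11.39 and 11.44 on IgG1 and IgG2, and 11.48, 12.21 and 11.57 on IgG3, IgG3_0 and IgG3_1x, so that both TRF2-S arrays were below every IgG array. The log2 difference was -0.73 (standard error 0.23) against 5 IgG arrays and -0.52 (0.11) when set against IgG1 and IgG2, which is 1.44-fold (adjusted p = 0.406 and 0.135 from limma). *Efnb1*, also transmembrane, measured 6.85 and 7.07 in the TRF2-S RIP, 7.29 and 7.56 on IgG1 and IgG2, and 8.35, 7.96 and 8.26 on the arrays named IgG3. Here too both TRF2-S arrays lay below all others, with -0.93 (standard error 0.30) against 5 IgG arrays and -0.47 (0.14) when set against IgG1 and IgG2 (adjusted p = 0.406 and 0.255). *Efnb2* was not above background on any array.

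The Eph receptors are the tyrosine kinases that bind ephrins. Of 9 on the array 5 were tested, and against 5 IgG arrays all 5 log2 differences lay below 0, with a median of -0.42, while against IgG1 and IgG2 the median was -0.0067 and none had an unadjusted p under 0.05. *Epha4*, which binds ephrins of both classes, measured 9.48 and 9.59 in the TRF2-S RIP and 9.66 to 9.80 on the 5 IgG arrays. Its log2 difference was -0.18 (standard error 0.10) against 5 IgG arrays and -0.16 (0.11) when set against IgG1 and IgG2 (adjusted p = 0.409 and 0.626 from limma). *Epha5*, a receptor of ephrin-A ligands in cortical maps, changed sides between the controls, with -0.42 (standard error 0.37) and 0.20 (0.12). It measured 8.14 and 8.33 in the TRF2-S RIP, 8.01 and 8.05 on IgG1 and IgG2, and 8.93 to 9.15 on the arrays named IgG3.

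*Ephb1* had the largest gap of the 30 between the 2 sets of IgG arrays. It measured 7.25 and 7.61 in the TRF2-S RIP, 7.46 and 7.36 on IgG1 and IgG2, and 8.80 to 9.02 on the arrays named IgG3. Its log2 difference was therefore -0.90 (standard error 0.53) against 5 IgG arrays and 0.02 (0.14) when set against IgG1 and IgG2. *Ephb2*, a receptor at excitatory synapses, had -0.36 and -0.0067, and *Ephb6*, whose kinase domain is inactive, had -0.47 and -0.04. Neither *Ephb2* nor *Ephb6* was above background on TRF2-S array 1 (detection p 0.0703 and 0.0303). Each of these 3 receptors for ephrin-B ligands overlapped IgG1 and IgG2. *Epha7* was detected only on IgG3_1x (signal 123.6), and *Epha2*, *Epha10* and *Ephb3* on no array.

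**Figure D2:**
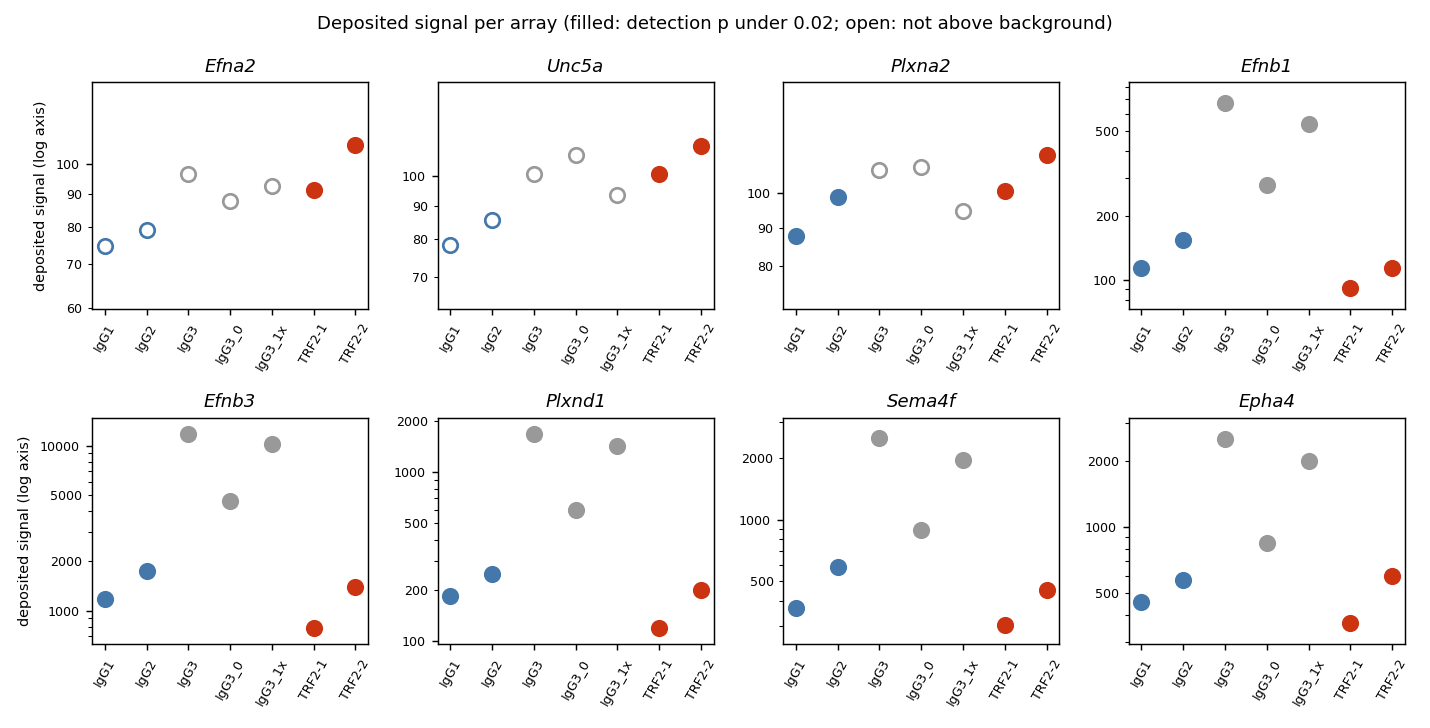
Deposited signal of 8 guidance mRNAs on each array (log axis, arbitrary scanner units), with filled points above background (detection p under 0.02) and open points not. *Efna2* and *Unc5a* have filled points on the TRF2-S arrays only, and *Efnb1*, *Efnb3*, *Plxnd1* and *Sema4f* are filled throughout and lowest on TRF2-S array 1.

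Of 17 semaphorins on the array 8 were tested, and those of class 4 lay lowest. Class 4 semaphorins are transmembrane ligands that signal through plexins of the B family and others. *Sema4f* measured 9.14 and 9.16 in the TRF2-S RIP, 9.37 and 9.69 on IgG1 and IgG2, and 9.72 to 9.79 on the arrays named IgG3. Both TRF2-S arrays lay below all IgG arrays, with -0.51 (standard error 0.14) against 5 IgG arrays and -0.38 (0.13) when set against IgG1 and IgG2 (adjusted p = 0.406 and 0.313 from limma). *Sema4a* had -0.76 and -0.16, and *Sema4g* -0.90 and -0.14, again with both TRF2-S arrays below every IgG array. The median of the 3 class 4 mRNAs was -0.76 against 5 IgG arrays and -0.16 when set against IgG1 and IgG2. *Sema4c* was not above background on any array.

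The secreted class 3 semaphorins repel axons through neuropilins and plexin-A receptors. *Sema3f* measured 7.31 and 7.34 in the TRF2-S RIP, 7.01 and 7.12 on IgG1 and IgG2, and 7.34 to 7.50 on the arrays named IgG3. It thus lay above IgG1 and IgG2, by 0.26 (standard error 0.11, adjusted p = 0.383 from limma), and within the range of the 5 IgG arrays, with 0.05 (0.15). *Sema3b* was detected only on IgG3 and IgG3_1x, with log2 differences of -0.17 and -0.07, and *Sema3a*, *Sema3c*, *Sema3d*, *Sema3e* and *Sema3g* were not above background on any array.

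Among the remaining semaphorins, *Sema6c*, a transmembrane ligand, measured 7.01 and 7.26 in the TRF2-S RIP, 7.00 and 6.93 on IgG1 and IgG2, and 6.66 to 6.73 on the arrays named IgG3. Both TRF2-S arrays were above all IgG arrays, the first of them by a narrow margin, and the log2 difference was 0.33 (standard error 0.14) against 5 IgG arrays and 0.17 (0.12) when set against IgG1 and IgG2 (adjusted p = 0.406 and 0.668 from limma). *Sema7a*, a GPI-anchored semaphorin that promotes axon growth through integrins, had -0.42 (0.39) against 5 IgG arrays and 0.25 (0.11) when set against IgG1 and IgG2. *Sema6b* had -0.65 and -0.08. *Sema5a* and *Sema6d* were on no array above background, and *Sema5b* on TRF2-S array 2 only (signal 87.8).

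All 6 plexin and neuropilin genes on the array were tested. Plexins are the signalling receptors of semaphorins, and neuropilins are the co-receptors of class 3. *Plxnd1*, the plexin that binds Sema3e, measured 7.37 and 7.94 in the TRF2-S RIP, 8.15 and 8.35 on IgG1 and IgG2, and 9.35, 9.12 and 9.37 on IgG3, IgG3_0 and IgG3_1x. Both TRF2-S arrays lay below all IgG arrays, with -1.21 (standard error 0.39) against 5 IgG arrays, a 2.32-fold difference, and -0.60 (0.19) against IgG1 and IgG2 (adjusted p = 0.406 and 0.27 from limma). Its TRF2-S arrays differed from each other more than those of any other guidance mRNA (SD 0.40). Against IgG1 and IgG2 the difference was -0.31 without TRF2-S array 1, -0.88 without array 2, and -0.70 without IgG1. The last had an adjusted p = 0.0464, with IgG2 as the only control array, assumed to vary as the TRF2-S arrays do.

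*Plxna2*, *Plxna3* and *Plxnb2* lay on the other side, with both TRF2-S arrays above all IgG arrays. *Plxna2*, a plexin-A receptor, measured 7.03 and 7.04 in the TRF2-S RIP, 6.83 and 6.87 on IgG1 and IgG2, and 6.35, 6.53 and 6.31 on IgG3, IgG3_0 and IgG3_1x, none of which was above background. The log2 difference was 0.46 (standard error 0.18) against 5 IgG arrays and 0.19 (0.10) when set against IgG1 and IgG2 (adjusted p = 0.406 and 0.524 from limma). *Plxnb2* had 0.44 and 0.05, and *Plxna3* 0.14 and 0.08. Both margins were narrow. *Plxnb2* stood at 7.23 on TRF2-S array 2 and 7.21 on IgG2, and *Plxna3* at 6.81 on array 1 and 6.79 on IgG1. *Plxnb2* was not above background on IgG3 and IgG3_1x, nor *Plxna3* on IgG3_0, so their values there are not levels. The neuropilin *Nrp1*, a co-receptor of Sema3a, measured 7.81 and 8.03 against 8.003 to 8.38 on the IgG arrays, with -0.30 (0.15) and -0.25 (0.13), below IgG1 and IgG2 but overlapping IgG3_0. *Nrp2*, the co-receptor of Sema3f, was detected on IgG1 and TRF2-S array 1 alone, with 0.11 and 0.00036.

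Over the 30, both TRF2-S arrays were above all 5 IgG arrays for 7 (all probes 10.3%) and below them for 8 (all probes 11.6%). Against IgG1 and IgG2 the numbers were 11 and 9 (all probes 22.5% and 19.4%). The higher ones in both counts include *Efna2* and *Unc5a*, which were tested only because the TRF2-S arrays detected them. *Efna4* and *Plxna2*, also among the 7, were above background on none of the arrays named IgG3. Beside the mRNAs above, *Slit1* was below all 5. These separations are on the common scale. For each of the 7 and each of the 8, the deposited signals on the TRF2-S arrays overlap those on IgG arrays. For example, deposited signals on the TRF2-S arrays overlap those on IgG1 and IgG2 for *Plxnd1* (119.9 and 202.1 beside 185.9 and 250.6). The same holds for *Sema4f* (306.2 and 452.4 beside 371.2 and 582.9). For *Efna4* (91.5 and 100.3) and *Plxna2* (100.5 and 112.2) they overlap signals on the arrays named IgG3, such as 92.3 and 107.3 on IgG3.

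**Figure D3:**
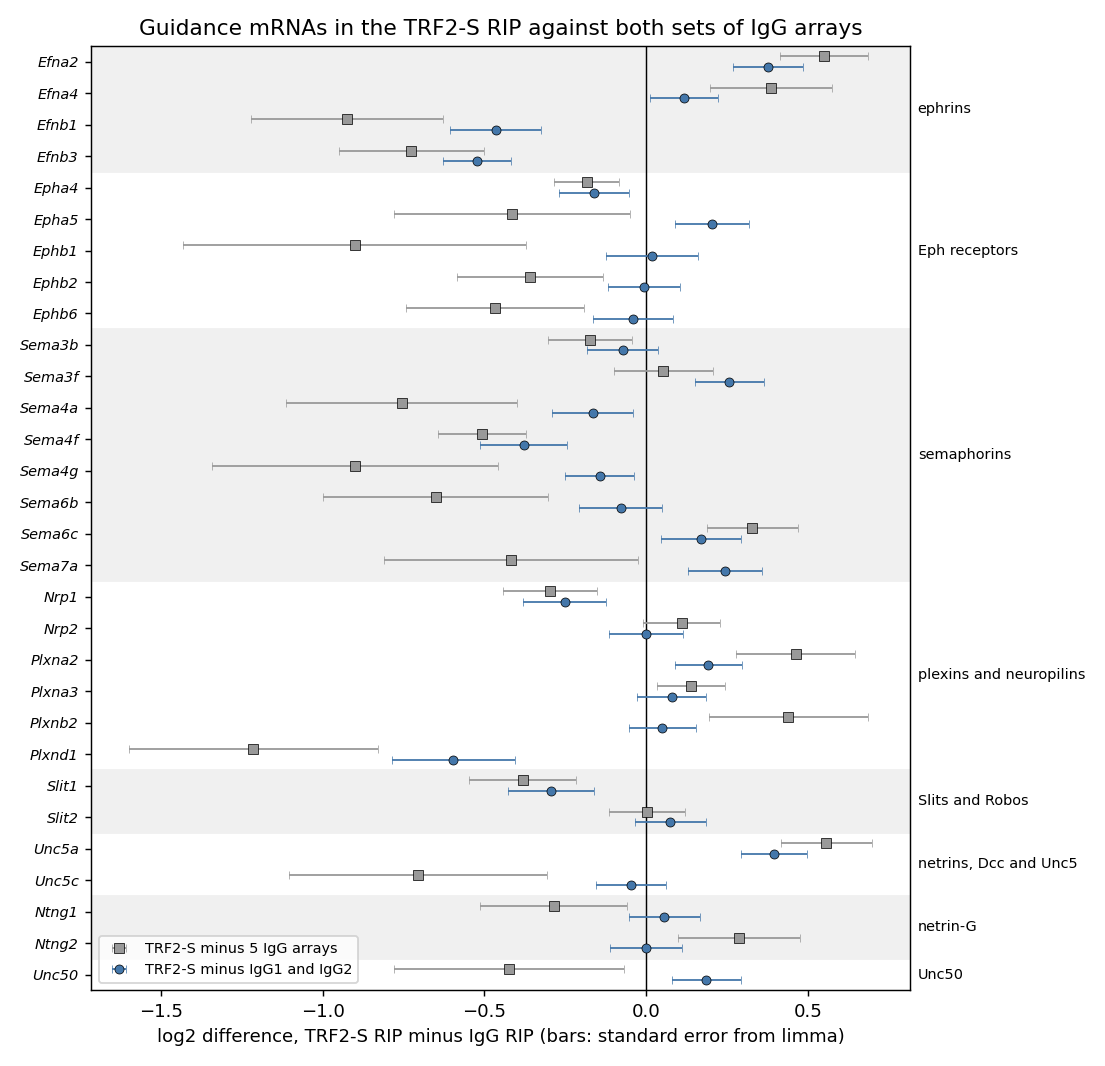
Log2 difference of each tested mRNA, TRF2-S RIP minus IgG RIP (horizontal axis), with the standard error from limma as bars. Squares are against 5 IgG arrays and circles when set against IgG1 and IgG2, and 28 of 30 circles lie within 0.5 of 0.

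Slit proteins are secreted repellents of the Robo receptors. *Slit1* measured 7.39 and 7.52 in the TRF2-S RIP, 7.61 and 7.90 on IgG1 and IgG2, and 8.08, 7.61 and 8.01 on the arrays named IgG3. The log2 difference was -0.38 (standard error 0.17) against 5 IgG arrays and -0.29 (0.13) when set against IgG1 and IgG2 (adjusted p = 0.406 and 0.43 from limma). *Slit2* measured 6.94 and 7.01 against 6.85 to 7.15 on the IgG arrays, with 0.0036 (0.12) and 0.08 (0.11). *Slit3* and the receptors *Robo2*, *Robo3* and *Robo4* were not above background on any array.

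Of the netrin system only receptors of the Unc5 family were tested. *Unc5a*, a netrin receptor of repulsion and of dependence-receptor signalling, had deposited signals of 100.4 and 110.9 on the TRF2-S arrays, 78.3 and 85.6 on IgG1 and IgG2, and 100.4, 107.4 and 93.4 on the arrays named IgG3. It was above background on both TRF2-S arrays and on 0 of the 5 IgG arrays, although its raw signal on IgG3_0 exceeded that on TRF2-S array 1. On the log2 scale it measured 7.03 on both TRF2-S arrays, 6.63 and 6.64 on IgG1 and IgG2, and 6.28 to 6.52 on the arrays named IgG3, with no overlap on this scale. There its values allow at least 1.32-fold against 5 IgG arrays and at least 1.28-fold when set against IgG1 and IgG2 (adjusted p = 0.406 and 0.213 from limma). *Efna2* and *Unc5a* were the only guidance mRNAs detected on both TRF2-S arrays and on no IgG array, 2 of 30 beside 0.914% of all tested probes, and it was through this pattern that both came to be tested.

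*Unc5c*, the other tested netrin receptor, measured 7.03 and 7.15 in the TRF2-S RIP, 7.11 and 7.17 on IgG1 and IgG2, and 7.91 to 8.41 on the arrays named IgG3, with -0.70 (standard error 0.40) and -0.05 (0.11). The netrins *Ntn1* and *Ntn3*, the receptor *Dcc*, and *Unc5b*, *Unc5cl* and *Unc5d* were not above background on any array. The netrin-G proteins are GPI-anchored and bind NGL proteins at synapses rather than Dcc. *Ntng1* had -0.29 and 0.06, and *Ntng2* 0.29 and -8.9e-05. In each case the TRF2-S arrays overlapped IgG1 and IgG2 on the common scale, but not the arrays named IgG3. *Ntng1* was not above background on TRF2-S array 1 or on IgG2. *Ntng2* was above background on none of the arrays named IgG3, so its values there are not levels. Its deposited signals there (110.7, 103.1 and 99.1) overlapped those of the TRF2-S RIP (90 and 104.2). *Unc50* measured 9.14 and 9.24 in the TRF2-S RIP, 8.98 and 9.03 on IgG1 and IgG2, and 9.97 to 10.07 on the arrays named IgG3, with -0.42 and 0.19.

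Of the 26 genes chosen by symbol but left out, 24 were above background on no array and 2, *Epha7* and *Sema5b*, on 1. Just inside the limit, with detection on 2 arrays, were *Efna2*, *Unc5a*, *Nrp2* and *Sema3b*. *Efna2* and *Unc5a* passed through the TRF2-S arrays, on which they are high, and *Sema3b* through arrays named IgG3.

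By role, the 16 ligands had a median of -0.33 against 5 IgG arrays and -0.04 when set against IgG1 and IgG2, and the 13 receptors -0.30 and 0.00036. At an unadjusted p under 0.05, 2 ligands were higher and 3 lower in each comparison. For the receptors 2 were higher and 1 lower against 5 IgG arrays, and 1 and 1 against IgG1 and IgG2. Over all probes the shares were 6.06% in each direction against 5 IgG arrays, and 6.51% higher and 6.02% lower against IgG1 and IgG2. The higher ones include *Efna2* and *Unc5a*, which were tested only because the TRF2-S arrays detected them.

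**Figure D4:**
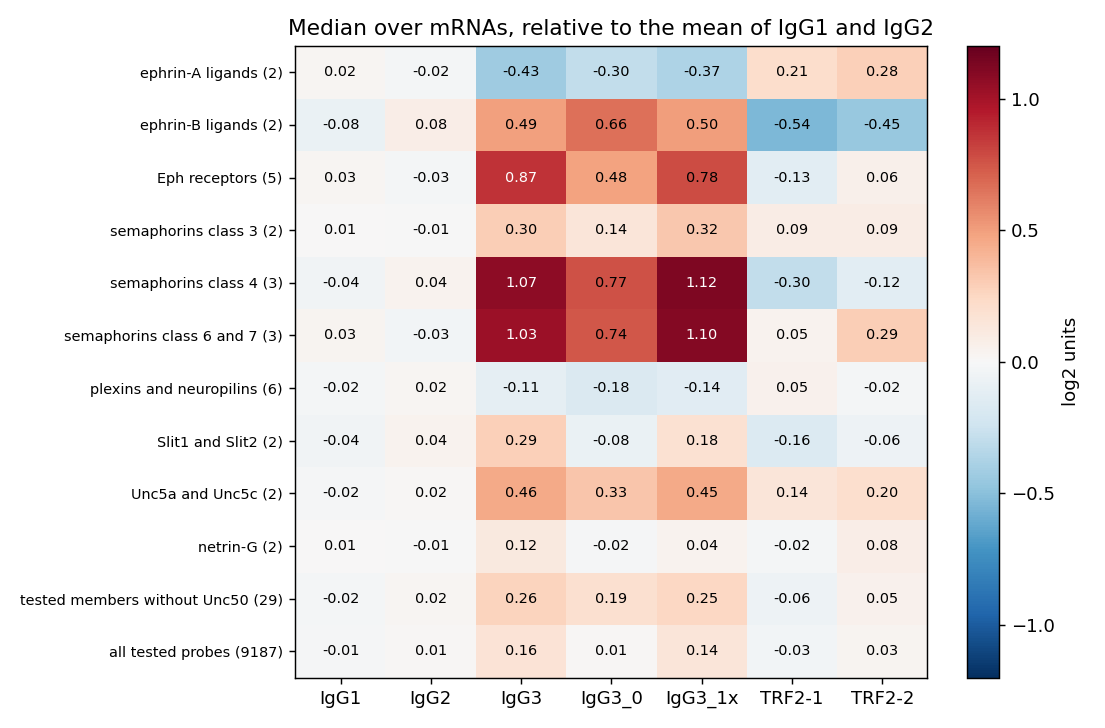
Median over the tested mRNAs of each family (number in brackets) on each array, in log2 units from the mean of IgG1 and IgG2. The ephrin-B row is negative on both TRF2-S arrays (-0.54 and -0.45) and positive on the arrays named IgG3, where the ephrin-A mRNAs were not above background.

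The map of family medians gives the values above by array. From the mean of IgG1 and IgG2, the 2 ephrin-B mRNAs had medians of -0.54 (TRF2-S array 1) and -0.45 (array 2), and of 0.50 to 0.66 on the arrays named IgG3. The 2 ephrin-A mRNAs had medians of 0.21 and 0.28 in the TRF2-S RIP and were not above background on the arrays named IgG3, so their values there are not levels. Eph receptors stood at -0.13 and 0.06 on the TRF2-S arrays and at 0.48 to 0.87 on the arrays named IgG3, where all tested probes stood at 0.01 to 0.16.

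The criteria of the study join a z-ratio beyond 1.8 (the difference of mean Z-scores over the SD of all such differences) to limits on p-values, detection and an average signal of at least 0. With this average taken over Z-scores, they were passed by 0 guidance mRNAs in the higher direction (all tested probes 1.31%) and 4 in the lower (1.59%) against 5 IgG arrays. The 4 are *Plxnd1* (z-ratio -4.38), *Efnb1* (-3.34), *Efnb3* (-2.61) and *Sema4f* (-1.83). Against IgG1 and IgG2, 0 passed as higher (2.01%) and *Efnb3* as lower (z-ratio -3.42, all tested probes 1.24%). The methods do not say whether the average signal means Z-scores or intensities. With linear intensities, a reading added after the data were seen, *Efna2* and *Unc5a* passed as higher in both comparisons (all tested probes 2.01% against 5 IgG arrays and 2.42% with IgG1 and IgG2), and the lower mRNAs were again these 4 and *Efnb3* (1.59% and 1.26%). Linear intensities are all above 0, so under this reading the limit on the average signal removes no probe. The z-ratios of *Efna2* and *Unc5a* against 5 IgG arrays were 1.98 and 2.01, from IgG values that were not above background. Both mRNAs were tested only because the TRF2-S arrays detected them.

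Normalization of the 4 arrays alone changed which mRNAs passed against IgG1 and IgG2. With quantile normalization limma called *Unc5a* higher (log2 difference 0.32, adjusted p = 0.0448) and *Efnb1* (-0.43, adjusted p = 0.0232), *Efnb3* (-0.45, 0.0151) and *Plxnd1* (-0.51, 0.0204) lower, which is 1 and 3 of 30 beside 3.46% and 2.57% of all probes. With neqc, which also removes background, *Unc5a* (0.79, adjusted p = 0.0359) and *Efna2* (0.75, 0.0436) were called higher and 0 lower (all probes 0.893% and 0.218%). With the replicate number as a block, 1 was called higher and 3 lower (all probes 3.68% and 3.37%). With median centring, 0 of 30 had an unadjusted p under 0.05 in either direction against IgG1 and IgG2. Against 5 IgG arrays it gave 2 higher and 0 lower, and the shares over all probes were not counted. The direction of these 5 mRNAs, *Unc5a*, *Efna2*, *Efnb1*, *Efnb3* and *Plxnd1*, was the same in every alternative that gave a value for them, in both comparisons. The alternatives refit the same arrays, so this sameness is not independent evidence. *Unc5a* and *Efna2* came to be tested only through detection in the TRF2-S RIP, a selection that favours the higher direction and limits their adjusted p-values here.

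Other genes of guidance signalling were taken from 3 lists, none of whose members passed over all probes in limma in either comparison. Of 60 effectors that act below the receptors, 36 were tested, with medians of 0.0047 against 5 IgG arrays and -0.02 when set against IgG1 and IgG2. At an unadjusted p under 0.05, 1 was higher and 2 lower in the first comparison (all probes 6.06% each), and 1 and 4 in the second (6.51% and 6.02%), shares that apply to the other lists too. By the criteria of the study, with Z-scores, *Limk2*, *Lingo1* and *Cxcl12* were lower against 5 IgG arrays, and *Crmp1* was lower and *Sprr1a* higher when IgG1 and IgG2 were the control. *Limk2*, a kinase that inactivates cofilin, measured 8.33 and 8.53 in the TRF2-S RIP and 8.81 to 9.39 on the IgG arrays, with -0.68 (standard error 0.17) and -0.48 (0.13). *Crmp1*, a mediator of Sema3a signalling, had -0.28 (0.24) and -0.44 (0.10). *Fyn*, a Src-family kinase used by several guidance receptors, had 1.04 (0.45) and 0.27 (0.11), and lay at 6.90 to 7.14 on the arrays named IgG3 against 8.32 on IgG1 and IgG2. *Pitpna*, a phosphatidylinositol transfer protein, had -0.36 (0.15) and -0.25 (0.14), and *Evl*, an Ena/VASP protein of actin filaments, had 0.22 (0.54) and -0.52 (0.15).

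Among 55 other cues, adhesion molecules and receptors, 25 were tested, with medians of -0.13 and -0.04 and with 2 higher and 3 lower, and 2 and 2, by unadjusted p under 0.05. *Rgma*, a repulsive ligand of neogenin, measured 7.49 and 7.86 in the TRF2-S RIP, 7.03 and 6.79 on IgG1 and IgG2, and 6.25 to 6.35 on the arrays named IgG3, none of which was above background. Its log2 difference was 1.13 (standard error 0.25) against 5 IgG arrays and 0.77 (0.16) when set against IgG1 and IgG2 (adjusted p = 0.399 and 0.15 from limma), with both TRF2-S arrays above the rest. *Rtn4rl2*, a relative of the Nogo receptor, was above background on both TRF2-S arrays and on 0 IgG arrays, and on the common scale its values allow at least 1.14-fold against 5 IgG arrays. It came to be tested only through this pattern, which 0.914% of all tested probes have. It is counted among the higher ones of this list in both comparisons. *Cxcl12*, a chemokine that also guides axons, had -0.78 (0.21) and -0.48 (0.13), and *Lingo1*, of the Nogo receptor complex, -0.89 (0.29) and -0.45 (0.18).

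Of 22 growth cone and axon growth genes 17 were tested, with medians of -0.08 and 0.02, and with 2 higher and 1 lower, and 3 and 0, by unadjusted p under 0.05. *Marcksl1*, an actin-binding substrate of protein kinase C, had 2.13 (standard error 0.80) against 5 IgG arrays and 0.77 (0.31) when set against IgG1 and IgG2 (adjusted p = 0.406 and 0.369 from limma). It measured 13.10 and 12.51 in the TRF2-S RIP, 12.50 and 11.58 on IgG1 and IgG2 and 9.73 to 9.82 on the arrays named IgG3. *Klc1*, a kinesin light chain, had -0.86 (0.36) and -0.26 (0.13), and *Map1b*, a microtubule-associated protein of growing axons, 0.52 (0.19) and 0.23 (0.10). *Tubb3*, a neuronal tubulin, had -0.39 (0.53) and 0.48 (0.19), and *Sprr1a*, induced by axon injury, -0.04 (0.23) and 0.31 (0.11).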

How the data were processed

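RNA from the RIPs was amplified, biotin-labelled and hybridized to rat Ref-12 BeadChips by the authors. They deposited a linear signal intensity per probe and array, not normalized between arrays, with a detection p-value. Signals were extracted with BeadStudio 1.5 (methods) or GenomeStudio 2011.1 (submitters' processing notes). The deposited score of each probe matched a Z-score computed per array from log intensity to within 5e-10, TRF2-S and IgG arrays alike, and the log base, which cancels, is unknown. Its median per array lay between -0.474 and -0.378. Intensities were log2 transformed, Z-scored per array, put back to the common mean and SD, and tested with limma 3.58.1 in R 4.3.3 over 9187 probes, with Benjamini-Hochberg adjustment. No background was subtracted here, which understates changes of dim probes. The array SD of log2 intensity was 0.92 to 1.16 on IgG1, IgG2 and the TRF2-S arrays and 1.16 to 1.61 on the others, so the common SD stretches differences among the first 4. A detected value was at least 6.55 to 6.74, depending on the array. The platform annotation gave a single gene symbol for 13793 of the 22523 probes.

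The fit was tested on simulated data first. Members, lists and tests were chosen with earlier results of these data known. Values per array were given for mRNAs with an unadjusted p under 0.05 in either comparison and no overlap, for the mRNA of each family with the brightest probe, for *Efna2* and *Unc5a*, and, beyond this rule, for others chosen after their values were seen. From each list the mRNAs with the smallest p-values were named. Probe brightness does not rank mRNAs. No mRNA sequence was used here. Alternatives were median centring, quantile normalization, neqc, no normalization, the deposited scores, other filters, leaving out each array and the replicate number as a block. The analysis of variance of the methods, with adjustment added here, and the criteria of the methods were also run.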

Additional observations from a re-analysis of the deposited data

Results flagged for a closer look

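Among the 5 IgG arrays, 2 of the 30 guidance mRNAs had 1 array far from the rest (Dixon's ratio above 0.71, which chance exceeds in about 1 of 20 groups). *Efnb3* measured 12.21 on IgG3_0, with 11.57 on the nearest array (ratio 0.773), and *Sema4f* 9.365 on IgG1, with 9.69 on the nearest (ratio 0.763). Without these arrays the log2 differences against the other IgG arrays were -0.58 for *Efnb3* and -0.58 for *Sema4f*.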

How the results depend on the processing

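Against 5 IgG arrays 0 of the 30 passed after adjustment in limma under any normalization, filter or fit tried, and 500 of 507 values of single mRNAs kept their direction and their side of the threshold. The criteria of the study gave 4 lower, and, with their average limit on linear intensity (chosen after seeing the data), 2 higher and 4 lower. Leaving out 1 array gave 0 to 0 in either direction, with the gap between the medians of guidance mRNAs and all probes at -0.31 to -0.22. Median centring and no normalization moved the median of all probes to -0.336 and -0.62, and relative to it *Sema3b* was at 0.081 under both. Leaving out 1 array, *Sema3f* ran from -0.011 to 0.11 and *Slit2* from -0.034 to 0.048. These are the only 3 of the 30 that changed direction, and the cause was not tested.

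Against IgG1 and IgG2, 415 of 447 values kept both. Quantile normalization gave 1 higher and 3 lower, neqc 2 higher, and the criteria of the study 1 lower, or 2 higher and 1 lower with the limit on linear intensity. Leaving out 1 array gave 0 to 0 higher and 0 to 1 lower, with the gap between medians at -0.027 to 0.029. Direction turned for 8 mRNAs close to 0. *Ephb2* was at 0.00040 and *Nrp2* at -0.0083 with median centring and with no normalization, *Nrp2* at -0.011 and *Ephb1* at -0.0030 with quantile normalization, and *Nrp2* at -0.027 and *Ephb1* at -0.0060 with neqc. Leaving out 1 array, *Ephb1* ran from -0.16 to 0.20, *Ephb2* from -0.078 to 0.065, *Ephb6* from -0.13 to 0.053, *Nrp2* from -0.084 to 0.085, *Ntng1* from -0.0041 to 0.12, *Ntng2* from -0.055 to 0.055, *Sema6b* from -0.22 to 0.063 and *Unc5c* from -0.11 to 0.014. The cause was not tested.

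With the replicate number as a block limma called 1 of the 30 higher (*Unc5a*, adjusted p = 0.0426) and 3 lower (*Efnb1*, 0.0212, *Efnb3*, 0.0132, and *Plxnd1*, 0.0103), beside 3.68% and 3.37% of all probes. Over all probes the block raised the calls from 13 to 338 higher and from 1 to 310 lower. Same-numbered arrays deviated together with a correlation of 0.278, but with only 2 pairs and no source for a pairing they share only a number. Since only numbers 1 and 2 occur in both groups, the block on all arrays is the same fit. With 2 TRF2-S arrays and signals of *Efna2*, *Unc5a*, *Nrp2*, *Sema3b* and others near background, small differences were not detectable.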
